A study of Mus musculus with 2 samples.

Results

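Myrf and Tmem98, the genes of a transcription factor and of the membrane protein that binds it, were followed through every cell class of the embryonic mouse eye cup. They are 2 of the 31053 genes counted in each library and were taken by their symbols in the deposited gene tables. Myrf had 638 unique molecular identifiers (UMIs, the tags that mark single captured transcripts) and Tmem98 had 7753 over all barcodes. Of these, 571 and 7197 lay in the cells kept after filtering.

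The eye cups came from mouse embryos at e15.5, after removal of cornea, lens and optic nerve. The control library was from Myrf fl/fl animals, in which both Myrf alleles carry loxP sites. The mutant library was from Rx>cre Myrf fl/fl animals, which carry the same floxed alleles and a Cre transgene driven by Rx sequence in the early eye field. That domain gives rise to the retinal pigment epithelium (RPE), the neural retina and the optic stalk, and does not include periocular mesenchyme, melanocytes, vessels or blood. Each genotype was 1 library made from 3 pooled samples. No test between genotypes was therefore possible, and the 95% intervals given here cover counting error only, not the spread between embryos or preparations.

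MYRF is made as a membrane-anchored precursor. It assembles into trimers and cuts itself, which releases an amino-terminal fragment that enters the nucleus and activates transcription. It is best known as a driver of myelination in oligodendrocytes. TMEM98 is a small transmembrane protein that binds the precursor and restrains its self-cleavage. Variants in either human gene are linked to nanophthalmos, a disorder of very small but otherwise complete eyes. The question asked of these data was where in the eye cup each gene is transcribed and how its level differed between the genotypes, inside and outside the RPE.

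Myrf (ENSMUSG00000036098) lies on the reverse strand of chromosome 19, from 10208272 to 10240748 in GRCm38. Its longest coding transcript in GENCODE M21 has 27 exons. Tmem98 (ENSMUSG00000035413) lies on the forward strand of chromosome 11, from 80810175 to 80822033, with 1 annotated transcript of 7 exons. No annotated gene overlaps either of them. The libraries count tags near the 3′ end of polyadenylated transcripts, and the floxed exon is not named in the sources used here. A Myrf UMI therefore reports that a transcript was present, not that it was intact. For this reason the residual Myrf UMIs of the mutant do not measure how many cells escaped deletion.

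The libraries were of similar depth, with 13017 and 13880 barcodes and medians of 9339 and 8702 UMIs per barcode in control and mutant. Clustering of 11576 control and 12623 mutant kept cells gave 34 clusters. Of these, 30 were named from marker genes and merged into 16 classes, and 4 low-depth clusters stayed unnamed. The RPE-like class was a single cluster of 368 control and 205 mutant cells, with median depths of 7101 and 3564 UMIs. Its cells carried Pmel, Dct, Tyrp1, Ttr, Trpm1 and Rlbp1, the genes of pigment synthesis, thyroxine transport, cation entry and retinoid binding that mark RPE. Of the 11 RPE markers used for naming, 10 were detected in control and 8 in mutant RPE-like cells. Rpe65, the isomerase of the visual cycle, had 0 UMIs in both libraries, and Pax3, which marks melanocytes, had 0 and 1. The RPE markers Rgr and Lrat fell from 17 and 2 control UMIs to 0 mutant UMIs each. For Rgr the interval of the mutant to control ratio reached up to 0.492. Neither gene reached the 20 UMIs asked of compared genes. Markers of other classes were also found in the RPE-like cells. The 14 periocular mesenchyme markers summed to 572 CPM (the UMIs of a gene per 1000000 UMIs of the class) in control cells and to 1092 CPM in mutant cells. The 9 retinal progenitor markers summed to 936 and 1459 CPM, and the 8 erythroid markers to 6052 and 4760 CPM. For the Myrf and Tmem98 levels, values without the RPE-like cells that carry mesenchyme, blood, vessel or immune markers are given below. For other RPE results the part of such RNA, and for all of them that of retinal progenitor RNA, was not tested.

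Myrf was concentrated in the RPE. RPE-like cells of the control library had 293 Myrf UMIs, a level of 76.2 CPM (95% interval 67.8 to 85.5). Those of the mutant library had 57 UMIs, or 30.1 CPM (22.8 to 39.0). The mutant level was 0.395 times that of the control (0.292 to 0.526), a log2 ratio of -1.34, and the intervals of the 2 levels did not overlap. A total of 11037 genes reached 20 UMIs in these cells when the libraries were added. Of these, 2.52% had a ratio of at most 0.5, and 119 genes (1.08%) had a ratio as low as that of Myrf or lower. Myrf was thus among the genes at or below a ratio of 0.5, although part of its transcript tags remained in the mutant.

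The difference appeared both in how many RPE-like cells had a Myrf UMI and in how many UMIs those cells held. A Myrf UMI was found in 128 of 368 control cells (34.8%) and in 36 of 205 mutant cells (17.6%). At least 2 UMIs were found in 19.3% of control cells and 8.29% of mutant cells. The richest control cell held 9 Myrf UMIs and the richest mutant cell held 4. Because mutant RPE-like cells were shallower, each cell was also thinned at random to 2000 UMIs. The share with a Myrf UMI was then 15.4% of 247 control cells and 3.25% (0.893 to 8.12) of 123 mutant cells. For this, 121 and 82 shallower cells were left out. Background from free RNA was read from immune-like cells thinned in the same way, in which 0 of 134 control and 0 of 183 mutant cells had a Myrf UMI, which allows shares of up to 2.24% and 1.64%. Thinned to 5000 UMIs, the shares were 30.4% of 207 control and 14.1% (7.74 to 23.0) of 92 mutant RPE-like cells, and 0 of 162 mutant immune-like cells had a Myrf UMI, which allows up to 1.85%. The interval of the mutant RPE-like share thus lay above the immune-like limit at 5000 UMIs, whereas at 2000 UMIs it included that limit. The part of mixed droplets in these UMIs was not tested.

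The difference was also seen among deep cells alone. Among RPE-like cells of at least 10000 UMIs, which were 165 in the control and 79 in the mutant, Myrf was at 77.5 and 34.2 CPM, a ratio of 0.441 (0.323 to 0.592). Between 5000 and 10000 UMIs, 42 control cells held 24 Myrf UMIs, whereas 13 mutant cells held 0, and the interval of the ratio reached up to 0.504. Below 2000 UMIs the counts fell to 8 and 1, and the interval of the ratio, 0.00430 to 1.42, included 1. The mutant library also held cells of both sexes and the control almost only female cells. Restricted to cells with an Xist UMI and no Y-linked UMI, Myrf was at 79.9 CPM in 189 control cells and at 29.7 CPM in 42 mutant cells.

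**Figure D1:**
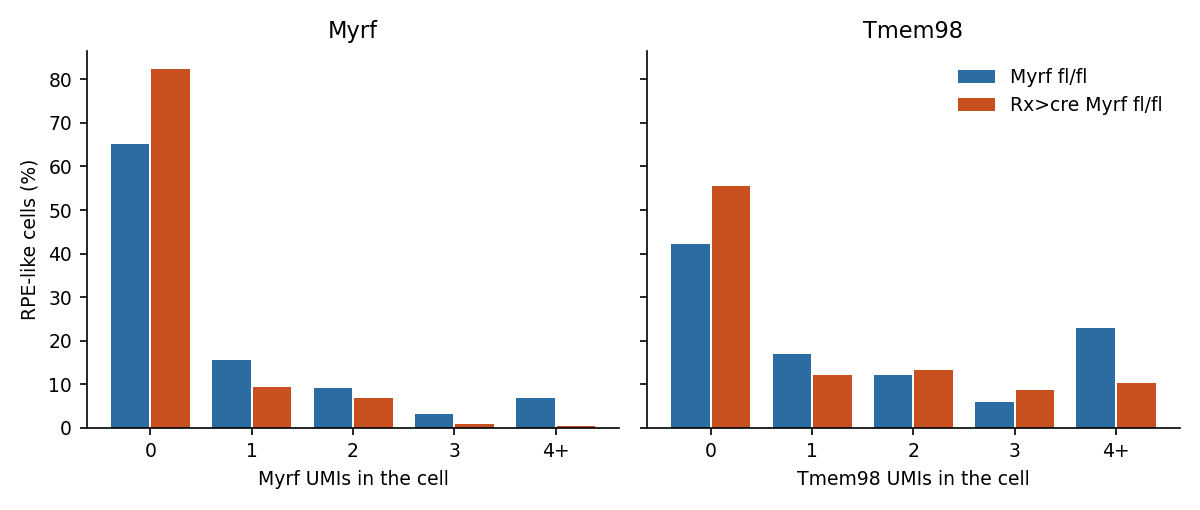
Share of RPE-like cells (vertical axis, percent) with 0, 1, 2, 3 or at least 4 UMIs of Myrf (left) or Tmem98 (right) in the 368 control (blue) and 205 mutant (orange) cells. The bars for cells with a Myrf UMI are lower in the mutant at each count above 0, and at least 4 Myrf UMIs were seen in 25 control cells and 1 mutant cell.

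Tmem98 was also highest in the RPE and also lower there in the mutant, but by less. The control RPE-like cells held 713 Tmem98 UMIs, a level of 186 CPM (172 to 200). The mutant cells held 243, a level of 128 CPM (113 to 145). The ratio was 0.691 (0.595 to 0.801), a log2 ratio of -0.53. Unlike Myrf, this ratio was not among the 2.52% of genes at or below 0.5, since 1149 genes (10.4%) had a ratio as low as that of Tmem98 or lower. The median log2 ratio of all genes measured was -0.06.

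A Tmem98 UMI was found in 57.9% of the control cells of this class and in 44.4% of the mutant ones. Among immune-like cells thinned to 2000 UMIs, 1 of 134 in the control and 0 of 183 in the mutant had 1. Thinned to 2000 UMIs per cell, the shares in RPE-like cells were 28.3% (22.8 to 34.4) and 20.3% (13.6 to 28.5), with intervals that overlapped. Thinned to 5000 UMIs, they were 55.1% (48.0 to 62.0) of 207 control and 52.2% (41.5 to 62.7) of 92 mutant cells. Among cells of at least 10000 UMIs the shares were nearly equal, at 92.7% and 91.1%. The difference in those deep cells lay in the amount, at 189 and 135 CPM (ratio 0.712, 0.607 to 0.832). The Tmem98 ratio was more sensitive than that of Myrf to which cells were counted as RPE. When RPE-like cells with a Pax3 UMI or with UMIs of at least 2 preset markers of mesenchyme, blood, vessels or immune cells were left out, 120 control and 59 mutant cells remained. Tmem98 was then at a ratio of 0.819 (0.525 to 1.25), an interval that included 1, and Myrf at 0.428 (0.174 to 0.923). These cells held 42 control and 8 mutant Myrf UMIs. The marker limit was not adjusted for depth, so deep cells reach it more readily, and the depth of the remaining cells was not compared. When RPE cells were chosen by a gate on visual cycle and transport genes instead of by cluster, the Tmem98 ratio was 0.568 (0.477 to 0.675).

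The balance of the pair in the RPE-like class therefore differed between the libraries. Control RPE-like cells held 2.43 Tmem98 UMIs for each Myrf UMI (2.12 to 2.80), and mutant RPE-like cells held 4.26 (3.18 to 5.79). The same ratio was higher in the other classes with values. Mesenchyme-like cells had 17.7 (14.2 to 22.5) in the control and 19.4 (14.3 to 26.9) in the mutant. Retinal progenitor-like cells had 27.1 (18.8 to 40.4) and 101 (57.5 to 196), a larger shift than in the RPE-like class and with intervals apart. Neurogenic progenitor-like cells went the other way, with 92.3 (35.7 to 340) and 29.9 (17.9 to 53.8), on 4 and 15 Myrf UMIs. These values compare the ratio between classes and genotypes, not the abundance of the genes with each other, because the tags of different transcripts need not be captured equally well. Without RPE-like cells carrying markers of other classes, 85 control and 31 mutant Tmem98 UMIs stood beside 42 and 8 Myrf UMIs. The mutant to control intervals of the 2 genes then overlapped, so a different balance could not be told there.

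Across the 16 classes of the control library the genes had different shapes. For Myrf, the RPE-like class stood alone. The next class was mesenchyme-like, with 81 UMIs and 1.85 CPM, and the RPE-like level was 41.3 times higher (32.2 to 53.4). Below the RPE-like class, neighbours in the order could not be told apart by their counts. Retinal progenitor-like cells had 1.16 CPM on 30 UMIs, and the other named classes with any Myrf UMI had 1 to 4 each. Melanocyte-like, immune-like, erythroid-like, horizontal-like, optic stalk-like and surface epithelium-like cells had 0. For the 51 control melanocyte-like cells, a count of 0 allows a level of up to 4.33 CPM. Melanocytes and RPE share the pigment genes, and the RPE-like level of Myrf was 17.6 times that limit.

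Tmem98, in contrast, had UMIs in every class of both libraries, from 4 in control immune-like cells upward. The RPE-like level was 3.13 times (2.29 to 4.41) that of the second class, melanocyte-like cells, which held 41 UMIs and 59.2 CPM in the control. Schwann cell precursor-like cells followed at 43.0 CPM, neurogenic progenitor-like cells at 39.7 CPM, mesenchyme-like cells at 32.8 CPM and retinal progenitor-like cells at 31.4 CPM. Differentiated retinal neurons were lower, with 13.3 CPM in retinal ganglion cell-like and 11.7 CPM in photoreceptor precursor-like cells. Amacrine-like cells were the exception, at 30.2 CPM. Immune-like and erythroid-like cells were the lowest, at 1.86 and 1.35 CPM. In this order the RPE-like class, the step from neurogenic progenitor-like to mesenchyme-like cells and the step down to immune-like cells were separated by more than counting error, and the other neighbours were not.

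**Figure D2:**
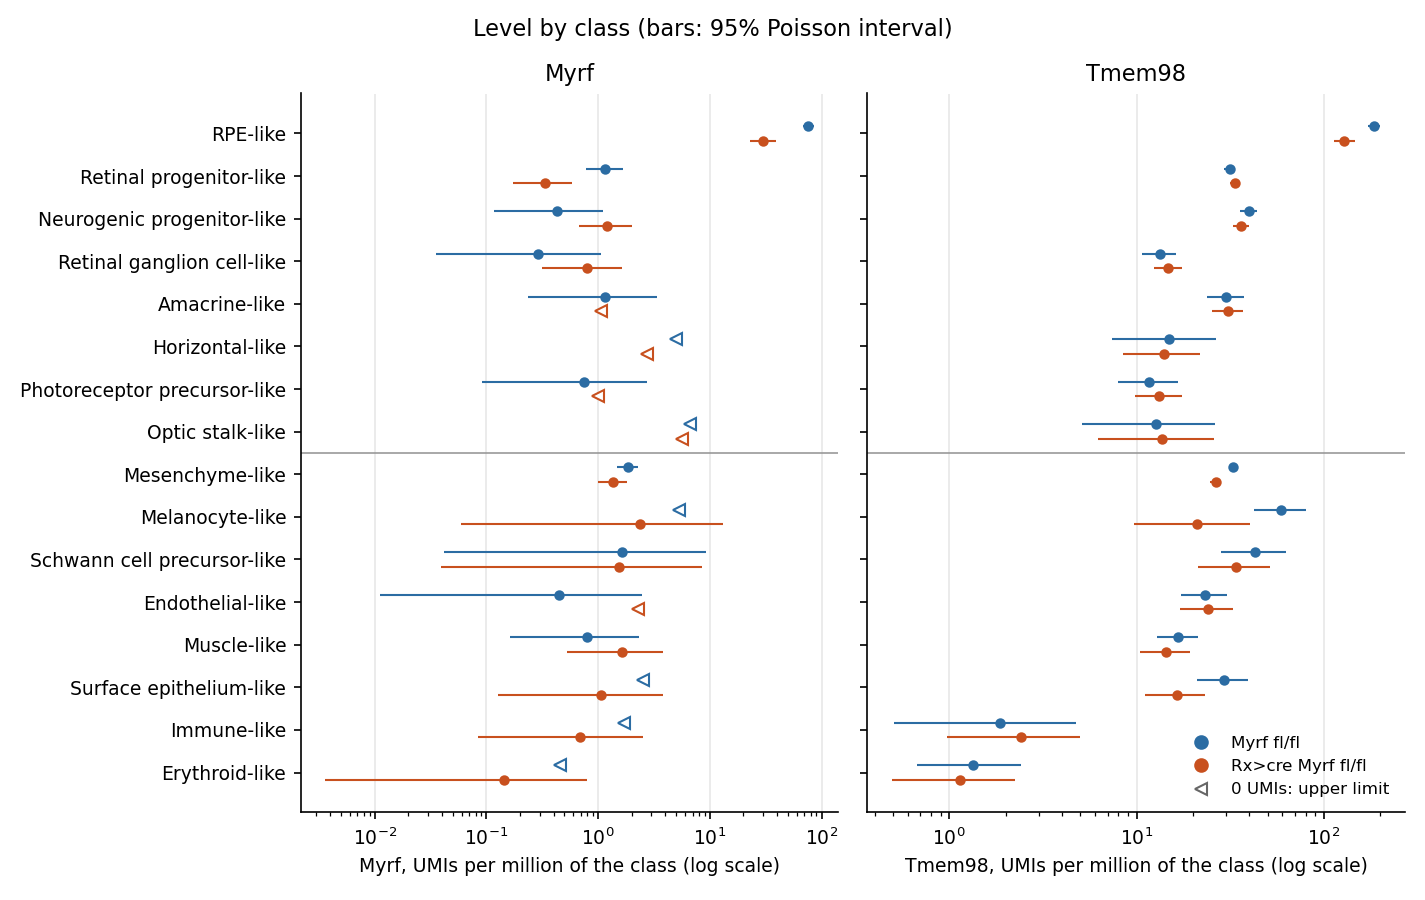
Level of Myrf (left) and Tmem98 (right) in each class, in CPM on log axes, for the control (blue) and the mutant (orange). Points carry 95% Poisson intervals, open triangles mark the upper limit where a class had 0 UMIs, and the horizontal line parts the eye field classes above from the others below. Myrf falls from 76.2 CPM in control RPE-like cells to 1.85 CPM in the next class, whereas Tmem98 stays between 11.7 and 59.2 CPM in the classes outside RPE other than immune-like and erythroid-like cells.

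These shapes determined where the transcripts of each gene lay. The 368 RPE-like cells of the control, among 11576 kept, held 69.3% (64.6 to 73.6) of its Myrf UMIs, and the 205 of the mutant, among 12623, held 38.5% (30.6 to 46.9). For Tmem98 these shares were 18.4% (17.2 to 19.7) and 7.31% (6.45 to 8.25). Most Tmem98 UMIs of the kept cells were therefore outside the RPE-like class in both libraries. The shares depended on the cells counted. For Myrf in the control, they were 33.3% among cells with at most 5% mitochondrial UMIs and 24.4% without RPE-like cells carrying markers of other classes. The setting behind the 24.4% takes cells from the RPE-like class only, so it can only lower the share. For Myrf in the mutant, the share was 52.2% among cells with an Xist UMI and no Y-linked UMI, so whether most of its Myrf UMIs lay outside the RPE-like class turned with that choice. Fewer RPE-like cells, less RNA per RPE-like cell and the lower level of each gene in these cells all enter these shares. That level was 76.2 and 30.1 CPM for Myrf and 186 and 128 CPM for Tmem98 in control and mutant. The parts were not separated.

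Outside RPE-like cells the control had 130 Myrf UMIs and the mutant 91, or 1.11 and 0.741 CPM, a ratio of 0.667 (0.505 to 0.879). Retinal progenitor-like cells, which descend from the domain of the Cre transgene, had 30 control and 12 mutant UMIs. Their level was 1.16 and 0.333 CPM, a ratio of 0.287 (0.134 to 0.577). In these cells 14.5% of all genes measured had an interval below 1 and 8.98% had one above 1, and 0.166% had a ratio as low as that of Myrf. Neurogenic progenitor-like cells went the other way in count, with 4 and 15 UMIs, but the interval of their ratio, 0.896 to 11.6, included 1. Over all eye field classes other than RPE the ratio was 0.606 (0.373 to 0.979). Over the classes outside the eye field it was 0.822 (0.576 to 1.16), an interval that included 1.

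Low levels outside the RPE can be RNA carried over from lysed RPE cells, so Myrf was read against genes that are rich in RPE. In control mesenchyme-like cells, 7 such genes stood at a median of 0.120% of their own RPE-like level. The range was from 0.0393% for Ttr to 1.92% for Rdh5, a retinol dehydrogenase. Myrf stood at 2.42% of its RPE-like level, above all 7. In the mutant, Myrf stood at 4.52% and the 7 genes at 0.0358% to 1.82%. Relative to its RPE level, mesenchymal Myrf was thus above every RPE-rich gene measured. In the control its interval, 1.87% to 3.11%, overlapped that of Rdh5, 1.62% to 2.26%, and in the mutant, at 2.98% to 6.82% against 1.44% to 2.27%, it did not. Rdh5 itself varied across control classes, from 0.290% in erythroid-like to 4.70% in Schwann cell precursor-like cells. Whether it is transcribed outside the RPE was not tested.

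In control retinal progenitor-like cells, Myrf stood at 1.52% of its RPE-like level, above 6 of the 7 genes and close to Rdh5 at 1.61%. In the mutant it stood at 1.11%, above 5 of the 7, with Rlbp1 at 1.14% and Rdh5 at 2.01%. Of the 4 values, in 2 classes and 2 libraries, the interval of Myrf was thus apart from those of all 7 genes in mutant mesenchyme-like cells only. Within these classes, cells with a Myrf UMI mostly held no UMI of the RPE-rich genes. Of the 75 such control mesenchyme-like cells, 18 held any, and 1 cell held 183 of their 222 UMIs. Their summed level was 170 CPM, and 30.9 CPM without that cell, beside 16.1 CPM in cells without a Myrf UMI. In the mutant, 1 of 41 such cells held any. Of 30 control retinal progenitor-like cells with a Myrf UMI, 10 held RPE-rich UMIs, and 1 cell held 17 of the 33. Their summed level was 92.2 CPM, and 46.0 CPM without that cell, beside 17.9 CPM in the others. Of 14 mutant neurogenic progenitor-like cells with a Myrf UMI, 1 cell held all 39 RPE-rich UMIs. The part of mixed droplets in these values was not tested.

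**Figure D3:**
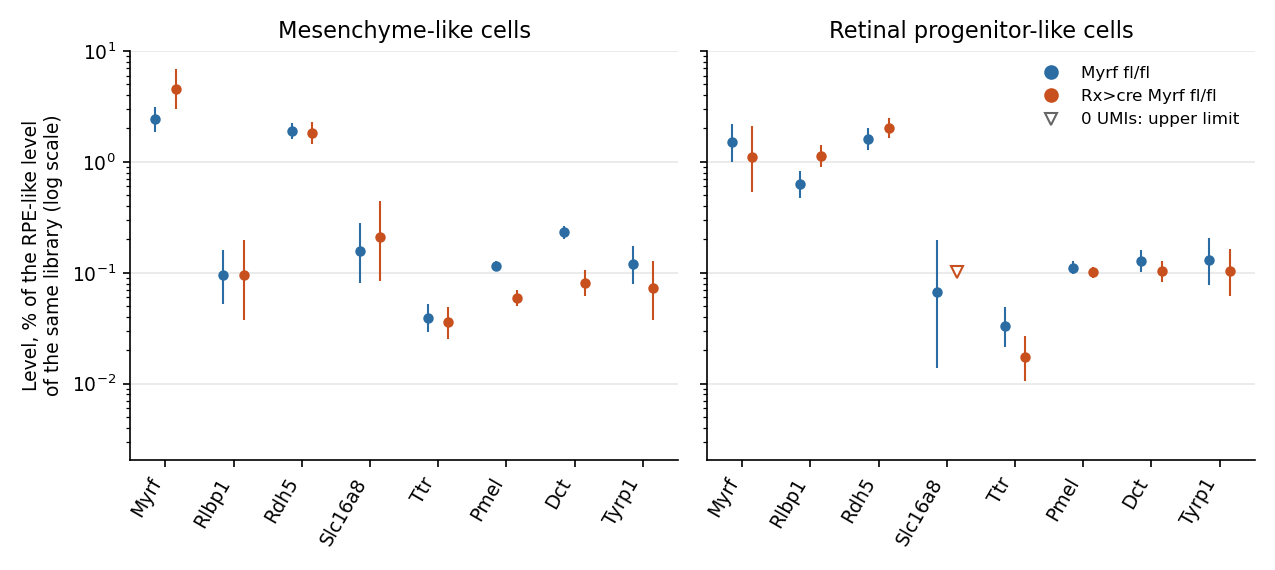
Level of Myrf and of 7 RPE-rich genes in mesenchyme-like (left) and retinal progenitor-like cells (right), as percent of the RPE-like level of the same library on a log axis, for control (blue) and mutant (orange). Bars are 95% intervals and the open triangle marks an upper limit at 0 UMIs. In mesenchyme-like cells Myrf lies above the 7 genes in both libraries, at 2.42% and 4.52%, whereas in retinal progenitor-like cells Rdh5 lies above it.

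Mesenchymal Myrf was not spread evenly. Of the 7 mesenchyme-like clusters, the cluster led by Akap12, Nts and Crym had 31 and 15 Myrf UMIs in control and mutant, or 3.01 and 1.99 CPM. The cluster led by Spp1, Mgp and Ecm1 had 14 and 14, or 2.26 and 2.66 CPM. These were the only mesenchyme-like clusters with at least 20 UMIs over both libraries, and the intervals of their mutant to control ratios, 0.331 to 1.26 and 0.519 to 2.66, included 1. The cluster led by Scx, Gas2 and Tnmd, which holds tendon genes, had 4 and 4.

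Outside the RPE, Tmem98 was compared between the genotypes tissue by tissue, without a test between tissues. In the eye field classes other than RPE, its levels in control and mutant were 28.8 and 29.6 CPM, a ratio of 1.03 (0.961 to 1.10). In these classes the intervals included 1. Retinal progenitor-like cells, the largest of them, had 812 and 1210 UMIs and a ratio of 1.07 (0.978 to 1.17), a counting interval that lay above that of the RPE-like cells. Outside the eye field, among classes that do not descend from the domain of the Cre transgene, Tmem98 was at 26.6 and 20.3 CPM, a ratio of 0.763 (0.705 to 0.825). This pooled value also depends on the mix of classes, which differed between the libraries.

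Outside the eye field, 3 classes had an interval below 1. In mesenchyme-like cells Tmem98 was at 32.8 and 26.4 CPM (1436 and 853 UMIs), a ratio of 0.805 (0.739 to 0.877). In surface epithelium-like cells it was at 29.1 and 16.4 CPM (43 and 31 UMIs), a ratio of 0.562 (0.342 to 0.913). The 51 control and 30 mutant melanocyte-like cells had 59.2 and 21.1 CPM on 41 and 9 UMIs, a ratio of 0.357 (0.153 to 0.746). In all, 3 of the 12 other classes with at least 20 Tmem98 UMIs had an interval below 1, 0 had one above 1, and 9 included 1. An interval below 1 was common among all genes of these classes, at 17.5% in mesenchyme-like, 5.38% in melanocyte-like and 8.34% in surface epithelium-like cells. An interval above 1 was found for 14.6%, 5.05% and 6.72%. Ratios as low as that of Tmem98 were found for 6.87%, 1.15% and 3.51% of genes in the same order. Lower Tmem98 in the mutant was accordingly found in classes besides the RPE-like class, and the difference between classes was not tested.

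Within the mesenchyme the ratio varied among clusters, but the intervals of the lowest and the highest overlapped, and differences between clusters were not tested. Among 6 clusters with at least 20 UMIs, 5 had a ratio below 1 and 3 had an interval below 1. The lowest was in the cluster led by Mfap5, Osr2 and S100a6, at 31.3 and 20.3 CPM (ratio 0.649, 0.501 to 0.833). The cluster led by Matn4, Kera and Cpxm2, of which Kera is a gene of corneal stroma, was at 26.7 and 17.8 CPM (ratio 0.666, 0.546 to 0.811). The cluster led by Scx, Gas2 and Tnmd was at 29.2 and 30.4 CPM (ratio 1.04, 0.809 to 1.33). Weighting the clusters as in the control gave a ratio of 0.817 for the class. In cells with an Xist UMI and no Y-linked UMI the mesenchymal ratio was 0.744.

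**Figure D4:**
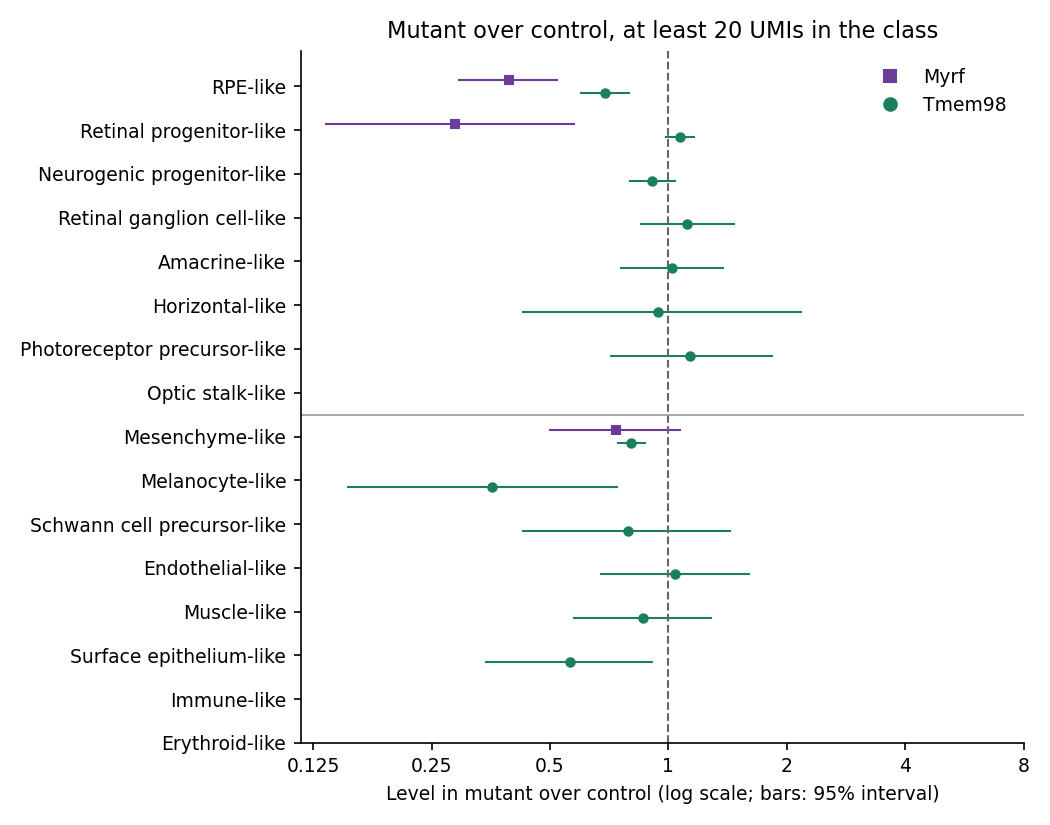
Level in mutant over control (horizontal log axis) for Myrf (purple squares) and Tmem98 (green circles) in the classes with at least 20 UMIs of the gene over both libraries, with 95% intervals. The dashed line marks equal levels and the solid line parts eye field classes from the others. Tmem98 lies at 0.691 in RPE-like cells, near 1 in the other eye field classes, and at 0.805, 0.357 and 0.562 in mesenchyme-like, melanocyte-like and surface epithelium-like cells.

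RPE-like cells of the control also differed among themselves. To hold depth nearly level, only cells of at least 10000 UMIs were compared, 99 with a Myrf UMI and 66 without, at median depths of 19001 and 18100 UMIs. Tmem98 was at 220 CPM in the cells with a Myrf UMI and at 142 CPM in those without, a ratio of 1.54 (1.30 to 1.84). In the mutant, 34 cells with a Myrf UMI and 45 without had 138 and 132 CPM, a ratio of 1.05 (0.794 to 1.38). The split was made from the same cells, so these values describe them and are not a test.

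Some other genes were described along the same split in the control. They were picked from those that the study gives as lower in mutant RPE, and the share of all genes that differ along the split was not computed. Ermn, which encodes an actin-binding protein of myelinating cells, had 104 UMIs in the cells with a Myrf UMI and 9 in those without, a ratio of 7.47 (3.79 to 16.8). Upk3b, a uroplakin gene, had 37 and 4, a ratio of 5.98 (2.15 to 23.1). Sox10, a transcription factor of neural crest and glia, had 31 and 4, a ratio of 5.01 (1.77 to 19.5). Wfikkn2, which encodes a secreted antagonist of GDF11, had 48 and 11, a ratio of 2.82 (1.44 to 6.02). Gdf11 itself had 57 and 27, a ratio of 1.36 whose interval, 0.849 to 2.24, included 1.

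Other RPE genes, some of which the study also gives as lower in mutant RPE, varied along the split. Mitf, the pigment cell transcription factor, was at 230 and 217 CPM (ratio 1.06, 0.910 to 1.23), and Dct, a melanin enzyme, was slightly lower in cells with a Myrf UMI (ratio 0.895, 0.855 to 0.937). Ttr, the thyroxine carrier, was 6.88 times higher in cells with a Myrf UMI, and in the mutant it was 5.42 times higher. Otx2, a homeobox factor of RPE and photoreceptors, was 1.77 and 1.53 times higher. Rlbp1, which binds retinaldehyde, was 2.04 times higher (1.77 to 2.36) in the control and 1.14 times (0.928 to 1.41) in the mutant. The Ttr and Otx2 differences between cells with and without a Myrf UMI were therefore also seen in the mutant. Those of Tmem98 and Rlbp1 were not detectable there. The control and mutant intervals overlapped for Tmem98 and were apart for Rlbp1, and the difference between libraries was not tested.

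**Figure D5:**
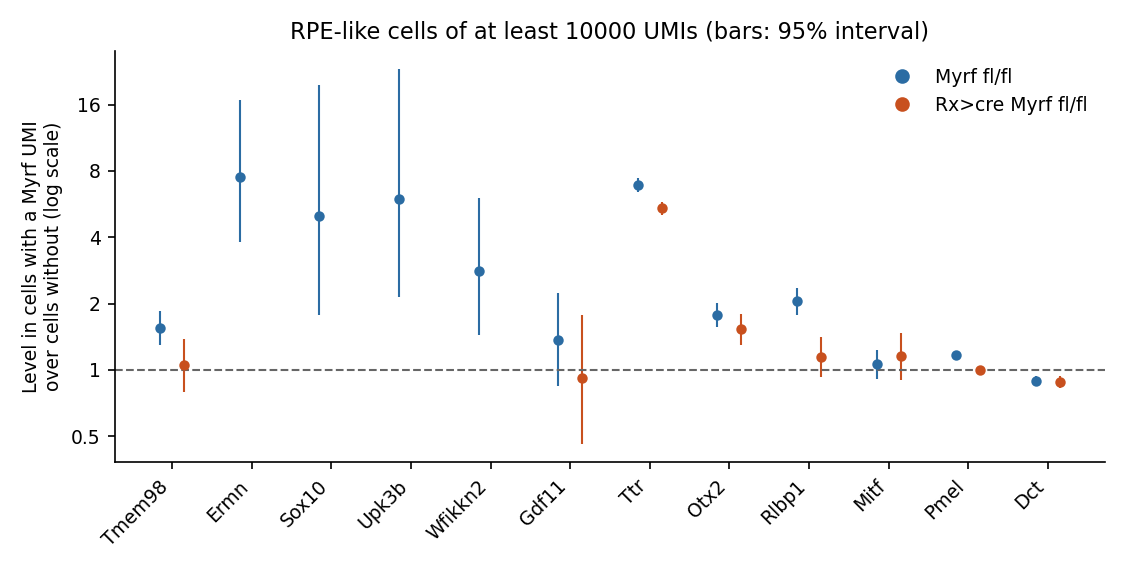
Level in RPE-like cells of at least 10000 UMIs with a Myrf UMI over those without (vertical log axis), by gene, for control (blue, 99 against 66 cells) and mutant (orange, 34 against 45 cells), with 95% intervals. Genes with under 20 UMIs in a library are not drawn. Control values run from 7.47 for Ermn down to 0.895 for Dct, with Tmem98 at 1.54 in the control and 1.05 in the mutant.

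Myrf and Tmem98 were also set beside other gene lists in RPE-like cells. The first list holds Ermn, Upk3b, Sox10, Wfikkn2 and Gdf11, picked from a longer set that the study gives as lower in mutant RPE. The study drew that set from several time points that include these libraries, so the direction here is not independent evidence. Some other genes of that set had ratios near or above 1 in these cells. The pigment genes Pmel, Dct and Tyrp1 had ratios of 0.997, 1.01 and 0.953, and Ttr had 1.10. The counts below therefore describe the picked genes only. Of these 5, 3 had a ratio of at most 0.5, beside 2.52% of all genes measured. Ermn had 139 control and 6 mutant UMIs (ratio 0.0876, 0.0316 to 0.195), Upk3b had 46 and 1 (ratio 0.0441, 0.00109 to 0.258) and Sox10 had 44 and 2 (ratio 0.0922, 0.0108 to 0.353). Wfikkn2 had 72 and 20 (ratio 0.563, 0.325 to 0.935). Gdf11 had 104 and 46 (ratio 0.897, 0.620 to 1.28) and an interval that included 1. The other 4 intervals lay below 1, as did those of 7.82% of all genes measured. The ratio of Myrf itself, 0.395, lay between those of Ermn, Upk3b and Sox10 and those of Wfikkn2 and Gdf11.

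The other genes of nanophthalmos and eye size were mostly too low to measure. Of 6, only Mfrp, a frizzled-related membrane protein, and Kcnj13, a potassium channel of RPE, had at least 20 UMIs. Mfrp had 39 and 19 UMIs and a ratio of 0.988 (0.539 to 1.75). Kcnj13 had 98 and 41 UMIs and a ratio of 0.849 (0.574 to 1.23). Both intervals also held the ratio of Tmem98, 0.691, and the other 4 genes were not measured, so Tmem98 could not be set apart from this group.

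Of 13 listed myelin genes, 6 were measured in RPE-like cells, and the median log2 ratio was -0.59 against -0.06 for all genes. An interval below 1 was found for 1 of the 6, beside 7.82% of all genes measured. Trf, which encodes the iron carrier transferrin and is made by both oligodendrocytes and RPE, was the only member at most 0.5, beside 2.52% of all genes measured, at 54.9 and 21.1 CPM (211 and 40 UMIs, ratio 0.385, 0.267 to 0.541). Its ratio was close to that of Myrf. The study also names Trf among its lower genes, so it is not independent of that set. Myrfl, the paralogue of Myrf, had 1 control and 0 mutant UMIs in RPE-like cells, so its level could not be compared. Of 5 markers of the oligodendrocyte lineage, Olig1 and Nkx2-2 had 0 UMIs in RPE-like cells of both libraries. Olig2 had 23 control and 9 mutant UMIs, Pdgfra 26 and 13, and Cspg4 6 and 2, and these 3 genes had most of their UMIs in neurogenic progenitor-like cells (Olig2) or mesenchyme-like cells (Pdgfra and Cspg4). No cluster was named oligodendrocyte-like.

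The 7 RPE transcription factors were all measured, and 0 passed 2-fold, beside 2.52% of all genes at most 0.5 and 1.54% at least 2. Intervals lay below 1 for 4 of them and above 1 for 1, beside 7.82% and 6.04% of all genes measured. Mitf had a ratio of 0.735 (0.644 to 0.837), Otx2 of 0.888 (0.812 to 0.970), Lhx2 of 0.862 (0.756 to 0.981) and Sox9 of 0.804 (0.684 to 0.942). Rax, an eye field factor of retinal progenitors, was the only one with an interval above 1, at a ratio of 1.37 (1.05 to 1.78). Retinal progenitor markers as a group were also higher in mutant RPE-like cells, by the sums given above, and their part in the Rax value was not tested.

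Genes whose levels across the 16 classes of the control were most like those of each member were found by Pearson correlation of log2(CPM + 1), among 13958 genes with at least 100 UMIs. For Myrf these were Col4a4 (r = 0.9499), Tdrd9 (0.945), Col4a3 (0.944), Mip (0.944) and Klk4 (0.941), all highest in RPE-like cells. Such correlations rest on the RPE-like class, since Myrf was at most 1.85 CPM in the other 15 classes. The mutant to control ratios of these 5 genes in RPE-like cells lay on both sides of 1. Tdrd9 had a ratio of 0.503 (0.330 to 0.746) and Mip of 0.864 (0.590 to 1.25), whereas Col4a4, Col4a3 and Klk4 had ratios of 1.23, 1.47 and 1.39, with intervals above 1. Col4a3 and Col4a4 encode chains of basement membrane collagen.

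For Tmem98 the most alike genes were Adgra3 (r = 0.935), Sesn3 (0.883), Lzts2 (0.867), Tmem55a (0.850) and Bsg (0.848). Their RPE ratios lay between 0.827 for Sesn3 and 1.17 for Bsg, which encodes basigin, a partner of lactate transporters. Tmem98 itself was at rank 106 of likeness to Myrf (r = 0.641). The correlations share libraries and class depths and describe likeness only.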

How the data were processed

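The authors prepared 10x Genomics 3′ libraries and deposited unnormalized counts of UMIs for each gene in each barcode, aligned to GRCm38 (mm10). Their processing notes name Cell Ranger 7.1.0 and Seurat 4.1.1, whereas the file headers give software 3.1.0. The shallowest deposited barcode had 500 UMIs, and the study's own filters on gene number and mitochondrial share had not been applied.

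Cells with under 200 genes or over 15% mitochondrial UMIs were left out. Doublets were scored with Scrublet in scanpy 1.11.5. Its automatic threshold marked 366 control and 0 mutant barcodes, so a score limit of 0.2 was set for both libraries after the scores were seen. It removed 366 and 395 barcodes (3.06% and 3.03%), below the 9.55% and 10.4% expected from the loading, so doublets remained. The study's limit of 2000 UMIs would remove 79.1% and 80.6% of barcodes and was used only as an alternative. The libraries shared 69 barcode sequences.

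Cells were clustered together on 1868 variable genes without the members, listed genes, markers, Xist or Y-linked genes (30 principal components, 15 neighbours, Leiden resolution 1). Clusters were named from marker lists. Naming limits, and the merging of mesenchyme, pericyte and cartilage lists, were chosen after the clusters were seen. Names can differ from the study's.

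UMIs were summed per class and library. Levels carry exact Poisson intervals, shares Clopper-Pearson intervals and ratios exact conditional binomial intervals, at 95%. All treat UMIs as independent and cover counting error only. A count of 0 was set to 3 for a limit, and no ratio was formed where both counts were at most 3. The members, the lists and the rule for named genes (the 5 most alike genes, and list members with at least 20 UMIs) were chosen with earlier results of these data known. The comparison by Myrf UMI, the depth ranges, the mesenchymal clusters and the values without the cell richest in RPE-rich RNA were added after values were seen. The interval code was tested on simulated counts. Gene positions are from GENCODE M21.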

Additional observations from a re-analysis of the deposited data

Results flagged for a closer look

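A Y-linked UMI was found in 41.8% of kept mutant cells and in 0.0259% of kept control cells, a signal outside the measured genes and above its level in the control. The control pool was thus almost entirely female and the mutant pool mixed. Within mutant RPE-like cells, the 42 cells with an Xist UMI and no Y-linked UMI had Myrf at 29.7 CPM (19.0 to 44.2) and Tmem98 at 140 CPM (115 to 168). The 43 cells with a Y-linked UMI and no Xist UMI had Myrf at 45.4 CPM (29.6 to 66.5) and Tmem98 at 120 CPM (93.7 to 152). The intervals overlapped for both genes, and all of these values lay below the levels of control cells with an Xist UMI, at 79.9 and 193 CPM.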

How the results depend on the processing

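No paired analysis was possible because each genotype was 1 library, and for the same reason no replicate could be left out. The ratio of Myrf in RPE-like cells stayed below 1 in all 14 alternatives, and 12 lay within its counting interval. It was 0.191 with cells over 2000 UMIs removed and 0.281 as a mean over cells. The ratio of Tmem98 in RPE-like cells also stayed below 1. It was 0.352 with cells over 2000 UMIs removed, 0.568 by marker gate, 0.541 as a mean over cells and 0.819 without cells with markers of other classes. Outside RPE-like cells, Myrf was at 0.499 in Xist cells without a Y-linked UMI, where Tmem98 was at 0.873. Tmem98 there was at 0.978 as a mean over cells. With cells over 2000 UMIs removed its ratio was 1.39 (32 and 47 UMIs), and the interval, 0.866 to 2.24, included 1. In mesenchyme-like cells Tmem98 was at 0.732 with at most 5% mitochondrial UMIs.

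The shares of UMIs held by RPE-like cells moved in both directions. Leaving out RPE-like cells with markers of other classes could only lower them. The causes of the other moves were not tested. The mutant Myrf share, 38.5% as reported, was above 50% in Xist cells. For Myrf in control and mutant, they were 33.3% and 9.86% with at most 5% mitochondrial UMIs, 88.9% and 50% (8 and 1 UMIs) with cells over 2000 UMIs removed, 62.6% and 30.4% with cells over 20000 removed, and 24.4% and 8.08% without cells with markers of other classes. The gate gave 58.4% in the control and the Xist cells 52.2% in the mutant. For Tmem98 the same 4 settings gave 5.94% and 2.33%, 44.8% and 11.3%, 14.2% and 4.82%, and 2.62% and 0.996%. The gate gave 15.2% and 5.18%, and leaving out the 5 richest cells 17.1% and 6.27%. In the mutant the mean over cells gave 6.35% and the Xist cells 10.9%.

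With a minimum of 50 or 1 UMIs in place of 20, the share of genes at most 0.5 was 0.909% or 4.9%. By Spearman correlation 0 of the 5 genes most like Myrf and 1 of the 5 most like Tmem98 were found again, and in the mutant library 1 and 2, so these names depend on the measure. Below 2 CPM, Myrf rests on few UMIs in most classes, and differences there were mostly not detectable at this depth. With cells over 2000 UMIs removed, Myrf outside RPE-like cells had too few UMIs for a ratio. A scaling common to a whole library cannot change a share of UMIs, and leaving out RPE-like cells cannot change a level outside them, so these were not computed.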

Other observations

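Barcodes left out for mitochondrial share or gene number also held Myrf. The 1075 such control barcodes had 33 Myrf UMIs, or 8.59 CPM (5.92 to 12.1), and the 862 such mutant barcodes had 8, or 2.38 CPM (1.03 to 4.68). Of these, 17 control barcodes with UMIs of at least 2 RPE gate genes and no Pax3 UMI held 18 Myrf UMIs, or 255 CPM (151 to 403), and 4 mutant barcodes held 3. Tmem98 in the same barcodes was at 127 CPM in the control (9 UMIs) and 187 CPM in the mutant (6 UMIs). Those 17 control barcodes were richer in Myrf than kept RPE-like cells, at 76.2 CPM.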
